A study of Rattus norvegicus with 35 samples.

Results

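The liver breaks down, activates and conjugates steroid hormones, and the 9 genes described here cover the main steps of that work: the steroid reductases Srd5a1, Srd5a2, Srd5a3 and Akr1d1, the hydroxysteroid dehydrogenases Hsd11b1, Hsd17b2 and Hsd3b5, the steroid hydroxylase Cyp17a1 and the estrogen receptor Esr1. They were found by gene symbol in the array platform's annotation, and the probe set with the highest mean over all arrays was taken as a gene's value. Of the 9 genes, 7 had a probe set, 8 probe sets in all among 31042 tested, since Akr1d1 had 2. Srd5a1 and Srd5a2 were not analysed here. Expression was measured in individual Wistar Han IGS rats given feed containing a conazole fungicide, starting on gestation day 6 and ending on postnatal day 92, with Affymetrix rat arrays. Values were used from 32 of the 35 arrays listed: 7 control animals at 0 ppm, 5 at 500 ppm and 4 at 2000 ppm myclobutanil, 3 at 500 ppm and 4 at 2500 ppm propiconazole, and 5 at 500 ppm and 4 at 1800 ppm triadimefon. Neither the sex of the animals nor their litters are stated in the labels.

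As background, conazoles are made to block the fungal sterol demethylase, a cytochrome P450, and mammalian P450 enzymes of steroid synthesis and breakdown belong to the same superfamily. In the liver, testosterone and corticosterone lose activity by reduction of the A ring, by oxidation or reduction of their hydroxyl and keto groups, by hydroxylation and by conjugation. In the rat many of these steps differ between the sexes, and Hsd3b5 and Cyp2c11 are known as male-biased liver genes. Srd5a3 carries the name of the steroid reductases, but it is best known for reducing polyprenol to dolichol, the lipid carrier of protein N-glycosylation.

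The deposited values are scores whose scale and log base are not stated. They are given here as scores and differences of scores, and no fold change is derived from them. Array medians lay between 0.00528 and 0.0585, and the SD of the scores of an array between 0.704 and 1.02. Over all probe sets, the mean score of a probe set had a median of 0.0321 and a 90th percentile of 1.29. An adjusted p is that of limma's moderated test in a model of all 7 groups, with Benjamini-Hochberg adjustment over 31042 probe sets and a threshold of 0.05.

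The tissue label was checked before the genes were compared, because the extraction protocol names testis while the titles and the labelling protocol name liver. All 10 hepatocyte markers were well above the array middle, among them albumin (Alb), whose lowest score on any array was 4.76. Cyp2c11, the main male-specific P450 of rat liver, scored 4.12 to 7.29, and its female-specific counterpart Cyp2c12 scored 0.363 to 1.56. Leydig cell markers were near or below the array middle on every array, with Insl3 between -0.0297 and 0.186 and Cyp11a1 between -0.341 and -0.145. Transcripts of late germ cells were uneven: Prm1, the sperm protamine, scored 3.15 in replicate 2 at 1800 ppm triadimefon and -0.329 to -0.237 in the other 3 arrays of that group, against -0.271 to 1.71 in controls. The part of other tissue in the results below was not tested. The arrays also differed in the gap between the 3′ and 5′ control probe sets of GAPDH and actin, a measure of RNA or labelling quality. It averaged 1.30 ± 0.595 (SD, n = 7) in controls, 1.21 ± 0.849 (n = 5) at 500 ppm myclobutanil and 1.49 ± 0.375 (n = 4) at 1800 ppm triadimefon, and between 0.518 and 0.694 in the other 4 groups. The 6 animals numbered above 3000 were 3 controls and 3 of the 4 animals at 1800 ppm triadimefon; the labels do not say what the number series means.

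Across these arrays Hsd11b1 and Hsd3b5 were among the highest probe sets, with mean scores of 4.01 and 3.61, at percentiles 99.6 and 99.3 of all probe sets. Hsd17b2 at 2.06 and Akr1d1 at 2.04 lay at percentiles 95.6 and 95.5. Srd5a3, at 0.353, and Cyp17a1, at 0.134, lay in the middle of the array at percentiles 69.3 and 58.0. Esr1 was low, at -0.268 and percentile 15.6. These places describe the probe sets, which differ in how strongly they bind their targets, and do not rank the amounts of the transcripts.

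In the comparison of each treatment with controls, 1 of the 7 genes changed in 1 of the 6 treatments. Srd5a3 rose at 1800 ppm triadimefon, where 1.17% of all probe sets passed the threshold and 1.04% did so upward. None of the 7 passed at 500 ppm myclobutanil, where 0.0% of all probe sets did, at 2000 ppm myclobutanil (0.0644%), at 500 ppm propiconazole (0.0%), at 2500 ppm propiconazole (0.254%) or at 500 ppm triadimefon (0.00966%). At an unadjusted p under 0.05 the counts were 2 of 7 genes at 1800 ppm triadimefon, Srd5a3 and Akr1d1, where 10.8% of all probe sets were under it. They were 0 of 7 in the other 5 treatments, where 4.13% (500 ppm myclobutanil), 24.2% (2000 ppm), 9.23% (500 ppm propiconazole), 19.9% (2500 ppm) and 29.3% (500 ppm triadimefon) of all probe sets were. The median difference over the 7 genes at 1800 ppm triadimefon was -0.0167, against 0.0185 over all probe sets, with 3 genes above 0 and 4 below.

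**Figure D1:**
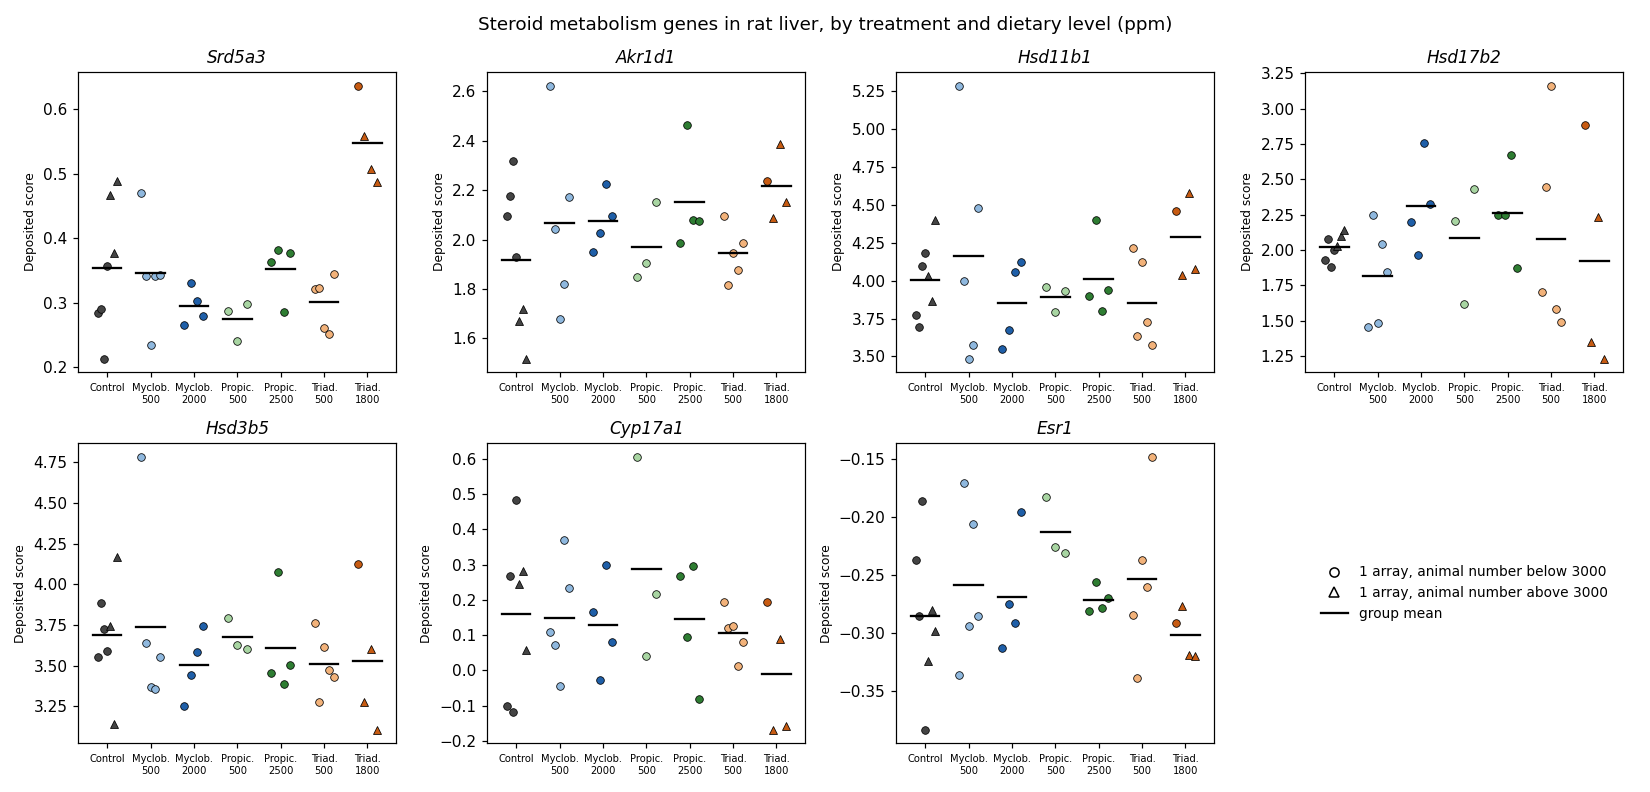
Deposited score (vertical axis, a scale of its own in each panel) of the 7 measured genes in the 7 groups (horizontal axis, dietary level in ppm); each point is 1 array, triangles are animals numbered above 3000 and the line is the group mean. Srd5a3 stood at 0.488 to 0.637 at 1800 ppm triadimefon and at most at 0.489 in all other groups. In the other 6 genes every treated group overlapped the controls, though treated groups did not always overlap each other.

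The upstream sequence of Srd5a3 is shown because it was the gene of the set that moved, and that of Hsd17b7 beside it because Hsd17b7 was the hydroxysteroid dehydrogenase that rose in the same animals. Each line gives the 250 bases before a start of the gene, for Srd5a3 1 of 2 listed, from RefSeq, 5′ to 3′ in the direction of transcription, on the minus strand of GRCr8: chr14:32414974-32415223 for Srd5a3 and chr13:84722755-84723004 for Hsd17b7. The annotated span of Srd5a3 reaches to 32414987, so the last bases of its window lie within that span. Distances are counted from the start used here. Capitals mark matches on either strand to GGGCGG (GC box), CCAAT and CACGTG (E-box).
Srd5a3: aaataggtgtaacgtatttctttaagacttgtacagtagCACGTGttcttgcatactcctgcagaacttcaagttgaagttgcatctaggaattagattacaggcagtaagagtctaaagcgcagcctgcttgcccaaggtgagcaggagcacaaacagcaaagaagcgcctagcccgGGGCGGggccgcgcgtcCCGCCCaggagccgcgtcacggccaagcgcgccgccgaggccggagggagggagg
Hsd17b7: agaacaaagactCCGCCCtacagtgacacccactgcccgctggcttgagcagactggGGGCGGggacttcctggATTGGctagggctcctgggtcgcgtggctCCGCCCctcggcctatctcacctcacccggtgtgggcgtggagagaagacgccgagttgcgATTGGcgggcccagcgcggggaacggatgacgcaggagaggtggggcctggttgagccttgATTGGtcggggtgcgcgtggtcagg
Srd5a3 had 2 GC boxes, which began 72 and 55 bases before the start, and 1 E-box 211 bases before it, and no match to CCAAT. Hsd17b7 had 3 GC boxes and 3 CCAAT boxes and no E-box. Neither window held TATAAA or CACCCCAC, a core of sterol response elements. Among 33469 rat windows of the same length, 30.5% held a GC box, 34.0% CCAAT, 12.9% TATAAA, 5.59% the E-box and 2.32% CACCCCAC. The GC content was 56.8% for Srd5a3 and 66.8% for Hsd17b7, against a median of 51.2%. These matches are a description of the letters, and binding was not measured.

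The scores of Srd5a3 were 0.637, 0.558, 0.508 and 0.488 in the 4 animals at 1800 ppm triadimefon. In the 7 controls they ran from 0.213 through a median of 0.357 to 0.489. Of the 4 treated animals 3 were above every control, and the lowest lay just under the highest control, so the groups overlapped at that point alone. The mean was 0.548 ± 0.0666 (SD, n = 4) against 0.354 ± 0.1003 (n = 7). The difference was 0.194 (SE 0.0430, 95% confidence interval 0.106 to 0.282, limma adjusted p = 0.0177), larger than the control SD of 0.1003.

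The other groups stayed within the control range or close to it. At 500 ppm triadimefon the scores were 0.322, 0.323, 0.261, 0.251 and 0.345, all below every animal at 1800 ppm. At 500 ppm myclobutanil they were 0.471, 0.341, 0.234, 0.341 and 0.344, and at 2000 ppm 0.265, 0.331, 0.303 and 0.280. At 500 ppm propiconazole they were 0.286, 0.241 and 0.298, and at 2500 ppm 0.364, 0.382, 0.285 and 0.376. By mean, 1800 ppm triadimefon was first, followed by controls at 0.354, 2500 ppm propiconazole at 0.352 and 500 ppm myclobutanil at 0.346, then 500 ppm triadimefon at 0.300, 2000 ppm myclobutanil at 0.295 and 500 ppm propiconazole at 0.275. Below the first place, no neighbours in this order differed by more than their spread.

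Srd5a3 also differed between the levels of triadimefon, by 0.247 (SE 0.0460, 95% confidence interval 0.153 to 0.342, limma adjusted p = 0.00202, higher in 4 of 4 animals than in all 5 at 500 ppm). In that comparison 24.8% of all probe sets passed the threshold and 22.3% did so upward, and in 21.8% all arrays at 1800 ppm were above all at 500 ppm, so that a call there sets a gene little apart from the rest. The same comparison within myclobutanil gave -0.0512 (95% confidence interval -0.146 to 0.0432) and within propiconazole 0.0771 (-0.0304 to 0.185); in these, 0 of 7 genes and 0.0% of all probe sets passed, while 11% and 1.18% had an unadjusted p under 0.05, against 41.1% within triadimefon. In the test for any difference among the 7 groups Srd5a3 had F = 7.00 (limma adjusted p = 0.0160), and 6.76% of all probe sets passed; it was the 1 gene of the 7 that did.

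**Figure D2:**
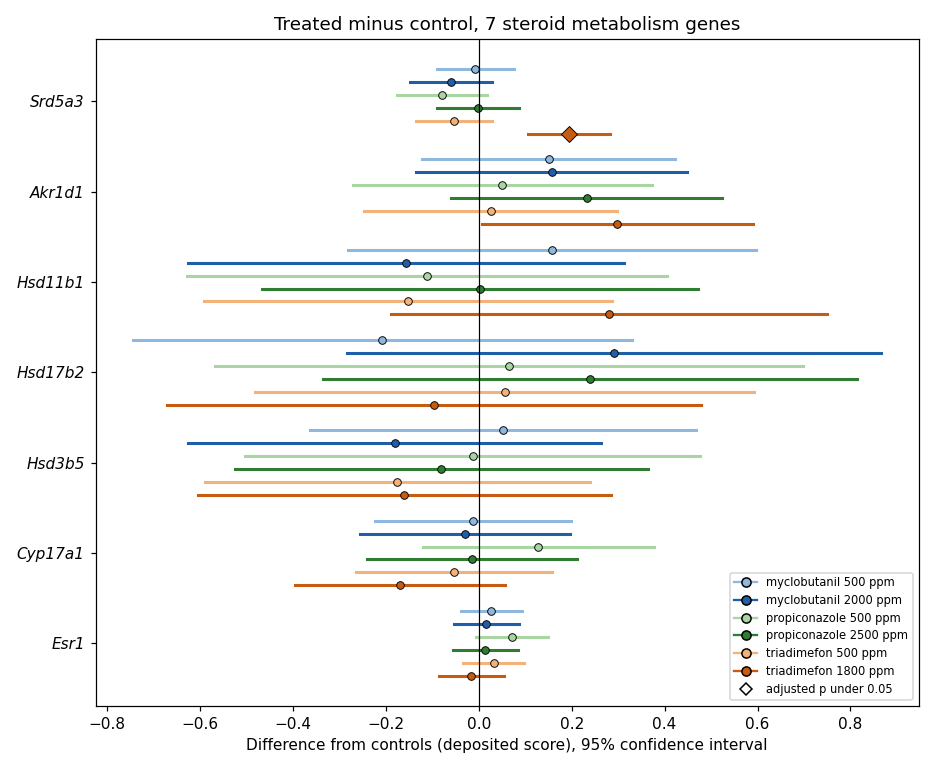
Treated minus control difference in deposited score (horizontal axis) with its 95% confidence interval for the 7 genes (vertical axis) and 6 treatments (colours); the diamond marks an adjusted p under 0.05. Srd5a3 at 1800 ppm triadimefon, at 0.194, was the 1 difference past the threshold; the intervals of Hsd17b2, Hsd11b1 and Hsd3b5 were the broadest.

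The difference of Srd5a3 was also measured within the number series and with regard to array quality. Among animals numbered above 3000, 3 treated animals averaged 0.518 ± 0.0365 and 3 controls 0.444 ± 0.0592, a difference of 0.0734 with a limma adjusted p of 0.878. Among the others, the 1 treated animal was at 0.637 and 4 controls at 0.286 ± 0.0587, a difference of 0.351 (limma adjusted p = 0.000916). That p rests on the spread within the other groups, since the lone treated animal is assumed to vary like them, and the difference between the number series was not tested. With the number series as a block the difference was 0.170 and its limma adjusted p 0.0551, so the call ended. Controls with a GAPDH gap above 0.9 averaged 0.423 ± 0.0652 (n = 4) and the other controls 0.262 ± 0.0426 (n = 3). With the 3′ to 5′ gap as a covariate the difference from controls was 0.177 (limma adjusted p = 0.00546), and the difference between the triadimefon levels was 0.160 and no longer passed (limma adjusted p = 0.103). The call against controls also ended without replicate 1 of 1800 ppm triadimefon (0.164, limma adjusted p = 0.0904), without its replicate 2, the animal high in Prm1 (0.190, limma adjusted p = 0.0501), and with these 2 groups alone in the model (0.194, limma adjusted p = 0.319).

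**Figure D3:**
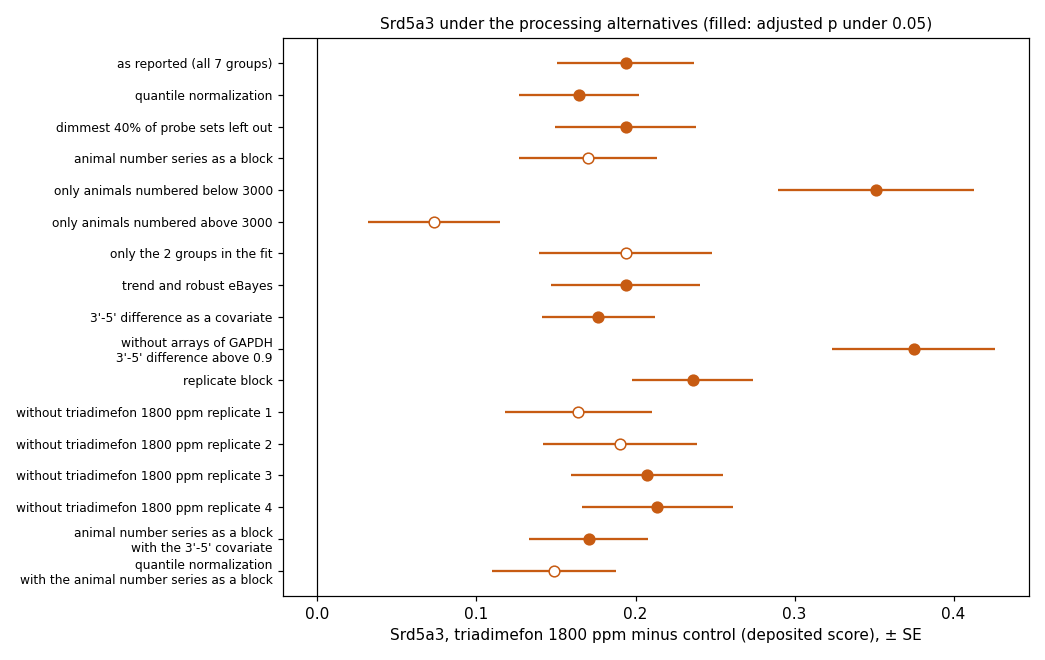
Difference in Srd5a3 score between 1800 ppm triadimefon and control (horizontal axis) ± SE, as reported and under each alternative (vertical axis) except those leaving out a control; filled points have an adjusted p under 0.05. The difference was above 0 throughout, from 0.0734 among animals numbered above 3000 to 0.375 without the arrays of GAPDH gap above 0.9. That last setting and the animals not numbered above 3000 leave 1 treated array, whose spread is taken from the other groups.

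Of the markers of liver cell types, 1 of 9 for stellate cells and fibroblasts and 1 of 5 for biliary cells passed in the same comparison, against 1.17% of all probe sets. These were Col1a2, a collagen chain, higher by 0.313 (limma adjusted p = 0.0410), and Epcam, an epithelial adhesion protein, higher by 0.720 (limma adjusted p = 0.000791). None of 8 macrophage, 5 endothelial, 6 lymphocyte or 10 hepatocyte markers passed against controls. Between the triadimefon levels 24.8% of all probe sets passed. There the macrophage markers Cd163, Clec4f, Csf1r, Adgre1, C1qa and Cd5l were higher at 1800 ppm, by 0.407 to 0.922. So were Col1a2, Col3a1 and Reln (stellate cell and fibroblast), Stab2 and Lyve1 (endothelial), Epcam and Cftr (biliary), Cd3e and Cd3d (lymphocyte) and Hnf4a (hepatocyte). The sums over each list were not tested. The summed score of 9 stellate cell and fibroblast markers was 6.37 to 7.40 at 1800 ppm triadimefon and 4.73 to 5.61 in controls. That of 5 biliary markers was 0.516 to 1.21 against 0.0270 to 0.318. Neither sum overlapped the controls. Of single probe sets 1.18% lay wholly above controls, which is not a like share for sums of several genes. The calls of Col1a2 and Epcam were not tried under the alternatives. The biliary sum includes Epcam, whose own difference was 0.720, so it does not show a rise over the whole list. The sum of 8 macrophage markers was 10.4 to 14.0 against 7.22 to 11.9, and that of 10 hepatocyte markers 42.6 to 53.4 against 38.3 to 49.7, both overlapping. The part of these in the difference of Srd5a3 was not tested, and in whole liver a change in the mix of cells and a change in RNA per cell cannot be told apart.

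Akr1d1 reduces the A ring of steroid hormones and of bile acid intermediates in the 5-beta configuration. Its main probe set scored 2.24, 2.09, 2.39 and 2.15 at 1800 ppm triadimefon, and 1.52 through a median of 1.93 to 2.32 in the controls. Of the treated animals 3 lay within the control range and 1, at 2.39, above it. The difference was 0.298 (95% confidence interval 0.00631 to 0.589, limma unadjusted p = 0.0456, adjusted p = 0.449), which did not pass. The 3 controls numbered above 3000 scored 1.67, 1.72 and 1.52, below all 4 other controls at 1.93 to 2.32. Among animals above 3000 the difference was 0.574 (limma adjusted p = 0.217).

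The second Akr1d1 probe set did not follow the first. It scored 1.42, 2.35, 1.58 and 2.19 in the same treated animals and 1.44 through 1.87 to 2.14 in the controls, a difference of 0.0527 (limma adjusted p = 0.956). Over the 32 arrays the Pearson r of both probe sets was 0.0941. On the 9 arrays of GAPDH gap above 0.9 the second probe set averaged 2.04 ± 0.268, against 1.72 ± 0.170 on the other 23, while the main probe set averaged 2.03 ± 0.357 and 2.04 ± 0.179. In the other 5 treatments the main probe set differed from controls by 0.0256 to 0.233 and the second by -0.109 to 0.0219, and none passed.

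**Figure D4:**
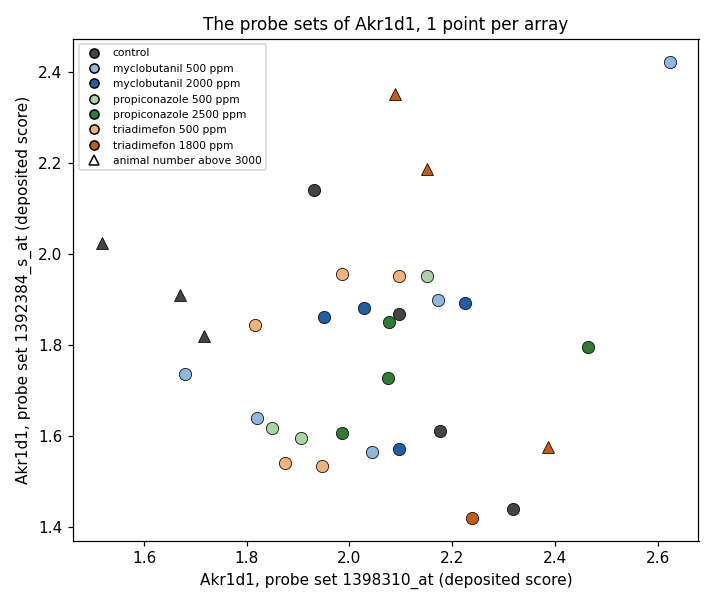
Deposited scores of both Akr1d1 probe sets, main on the horizontal and second on the vertical axis, 1 point per array; colours are groups and triangles are animals numbered above 3000. The points form no line (r = 0.0941, n = 32); the 3 control triangles lie at the left edge, at 1.52 to 1.72 on the main probe set.

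Hsd11b1 regenerates active glucocorticoid from its keto form. Its scores at 1800 ppm triadimefon were 4.46, 4.04, 4.58 and 4.08, against 3.69 through 4.03 to 4.40 in controls. The groups overlapped and the difference of 0.281 (95% confidence interval -0.189 to 0.751, limma adjusted p = 0.755) did not pass. At 500 ppm triadimefon they were 4.22, 3.64, 4.12, 3.73 and 3.57, a difference between the levels of 0.433 (95% confidence interval -0.0699 to 0.936, limma adjusted p = 0.179). After quantile normalization both differences changed sign, to -0.0603 from controls and -0.207 between the levels (limma adjusted p = 0.917 and 0.248). No direction can be given. At 500 ppm myclobutanil the first replicate was highest of all arrays at 5.29, and the others were 4.00, 3.49, 3.58 and 4.48. The propiconazole arrays ran from 3.79 to 4.40 and those at 2000 ppm myclobutanil from 3.55 to 4.12.

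Hsd17b2 oxidises estradiol and testosterone to their less active keto forms. The 7 controls were close together, from 1.88 through 2.03 to 2.14 with an SD of 0.0921. The treated groups were more scattered: 2.88, 1.35, 2.23 and 1.23 at 1800 ppm triadimefon and 1.70, 2.44, 3.16, 1.59 and 1.49 at 500 ppm, with SDs of 0.780 and 0.714. At 500 ppm myclobutanil the scores were 1.46, 2.25, 1.49, 2.04 and 1.84, and at 2000 ppm 2.20, 1.97, 2.76 and 2.33. At 500 ppm propiconazole they were 2.21, 1.62 and 2.43, and at 2500 ppm 2.25, 2.25, 2.67 and 1.87. The SDs of these 4 groups were 0.326 to 0.419. The difference in spread was not tested. No mean differed past the threshold, and the group means ran from 1.81 at 500 ppm myclobutanil to 2.31 at 2000 ppm, 0.498 apart (95% confidence interval -0.117 to 1.11, limma adjusted p = 0.454).

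**Figure D5:**
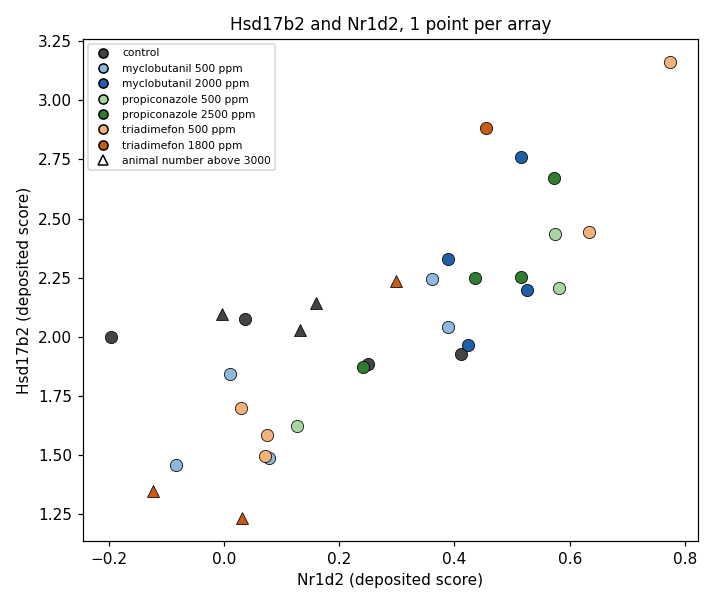
Deposited score of Hsd17b2 (vertical axis) against that of Nr1d2 (horizontal axis), 1 point per array, colours and triangles as the key gives. The arrays ran from low in both to high in both (r = 0.780, n = 32); control arrays kept Hsd17b2 between 1.88 and 2.14 while their Nr1d2 ran from -0.196 to 0.412.

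Hsd3b5 is a male-biased 3-ketosteroid reductase of rat liver. It belongs to a family of near-identical copies, so its probe set may read several of them and its values are uncertain as to the gene. The scores were 4.12, 3.28, 3.60 and 3.11 at 1800 ppm triadimefon and 3.14 through 3.72 to 4.17 in controls, almost the same range. No treatment passed the test against controls, the differences being -0.182 to 0.0524. The first replicate of 500 ppm myclobutanil stood apart at 4.78 from the other 4 at 3.35 to 3.64, and the second of 2500 ppm propiconazole at 4.08 from the other 3 at 3.39 to 3.50. The myclobutanil array also had the widest GAPDH gap of all 32 (2.62), whose part in its value was not tested. Between 1800 and 500 ppm triadimefon the difference was 0.0150 (95% confidence interval -0.461 to 0.490). It was -0.550 after quantile normalization (limma adjusted p = 0.00949) and 0.610 without the arrays of GAPDH gap above 0.9 (limma adjusted p = 0.0438, 1 treated array left, assumed to vary like the other groups), so no direction can be given.

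Cyp17a1 is best known for making androgen precursors in the gonads. Its scores were near the array middle in all groups and differed more between animals than between treatments. They were 0.193, -0.169, 0.0903 and -0.159 at 1800 ppm triadimefon and -0.117 through 0.244 to 0.482 in controls, a difference of -0.171 (95% confidence interval -0.397 to 0.0553, limma adjusted p = 0.646). The highest single score was 0.606, in the first replicate at 500 ppm propiconazole, where the others were 0.0405 and 0.216. The Leydig cell markers Insl3 and Cyp11a1 were low on that array as on all others.

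Esr1, the estrogen receptor through which estradiol acts in hepatocytes, was low on every array, from -0.383 to -0.148. Its group means lay between -0.302 ± 0.0211 (n = 4) at 1800 ppm triadimefon and -0.213 ± 0.0265 (n = 3) at 500 ppm propiconazole. The latter scored -0.183, -0.226 and -0.232 against -0.383 through -0.285 to -0.187 in controls, a difference of 0.0716 (95% confidence interval -0.00535 to 0.148, limma adjusted p = 0.548). The arrays at 2500 ppm propiconazole, at -0.281 to -0.256, all lay below those at 500 ppm, as they did in 1.91% of all probe sets. That difference of -0.0577 (95% confidence interval -0.143 to 0.0274) did not pass. At so low a score a change in the transcript may not be visible on the array.

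The compounds were compared where their level was the same, at 500 ppm. Over 3 pairs of compounds and 7 genes, 21 differences in all, none passed the threshold, and none of the 31042 probe sets did in any pair (0.0%). Adjusted p-values in limma ran from 0.409 to 0.9998 and the smallest unadjusted p was 0.167, while 4.29%, 19.1% and 2.49% of all probe sets were under 0.05 for myclobutanil against propiconazole, myclobutanil against triadimefon and propiconazole against triadimefon. For Srd5a3, myclobutanil minus propiconazole was 0.0711 (95% confidence interval -0.0316 to 0.174), myclobutanil minus triadimefon 0.0456 (-0.0434 to 0.135) and propiconazole minus triadimefon -0.0255 (-0.128 to 0.0773). For Hsd17b2 the intervals of the same pairs were far broader, -0.943 to 0.397, -0.844 to 0.317 and -0.660 to 0.680. The high levels differ between compounds and were not set against each other: at 2000 ppm myclobutanil, 2500 ppm propiconazole and 1800 ppm triadimefon, Srd5a3 differed from the shared controls by -0.0591, -0.00197 and 0.194.

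Of the other hydroxysteroid dehydrogenases and ketosteroid reductases, 21 of 27 listed had a probe set. At 1800 ppm triadimefon 1.04% of all probe sets passed upward against controls, and so did 1 of the 21. This was Hsd17b7, which takes part in cholesterol synthesis as well as estradiol formation. It scored 1.72, 1.60, 1.73 and 1.84, above all controls at 0.841 through 1.16 to 1.34, a difference of 0.597 ± 0.0939 (SE, limma adjusted p = 0.000585); in 1.18% of all probe sets all arrays of that group were above all controls. The call held in 22 of 23 alternatives and ended among animals numbered above 3000 alone. Between the triadimefon levels 4 of the 21 rose and 1 fell, against 24.8% of all probe sets: Hsd17b7 by 0.532, the peroxisomal Hsd17b4 by 0.604, the mitochondrial Hsd17b8 by 0.583 and H6pd, which supplies the cofactor of Hsd11b1, by 0.873, while Akr1c19 was lower (-0.234). These did not hold equally: of 20 alternatives the call held in 17 for Hsd17b7, 18 for H6pd, 13 for Hsd17b8, 11 for Akr1c19 and 6 for Hsd17b4. Among the 21, Hsd17b7 (F = 12.4, limma adjusted p = 0.00140) and H6pd (F = 5.18, limma adjusted p = 0.0339) passed the test for any difference among the 7 groups. Of all probe sets 6.76% did so. These calls held in 41 and 27 of 42 alternatives.

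Among the pathway genes that passed, the largest difference was in steroid conjugation. Ugt2b1, a glucuronosyltransferase, scored 4.20, 4.05, 4.37 and 3.92 at 1800 ppm triadimefon and 3.70, 4.27, 3.54 and 3.67 at 2500 ppm propiconazole, all above the controls at 2.28 through 2.58 to 2.78; at 2500 ppm propiconazole 0.767% of all probe sets lay wholly above controls. The differences were 1.60 (SE 0.230, limma adjusted p = 0.000202) and 1.25 (limma adjusted p = 0.0161). The first held in 23 of 23 alternatives and the second in 16 of 22. At 2000 ppm myclobutanil the scores of 3.40, 3.60, 3.84 and 3.44 were also above all controls without passing the test (limma adjusted p = 0.0580), and in 0.332% of all probe sets the arrays of that group were above all controls. At 500 ppm triadimefon the 5 scores of 3.08 through 3.22 to 3.51 were likewise above all controls without passing (limma adjusted p = 0.0777), against 0.132% of all probe sets. The other 2 groups, 500 ppm myclobutanil at 2.50 to 4.43 and 500 ppm propiconazole at 2.77 to 3.74, overlapped the controls. Against controls 1.04% of all probe sets passed upward at 1800 ppm triadimefon and 0.132% at 2500 ppm propiconazole. At 1800 ppm triadimefon 1.18% lay wholly above controls. Of the 11 conjugation genes measured of 13 listed, Ugt2b1 was the 1 that rose in any comparison. It also rose between the triadimefon levels (0.906), where 24.8% of all probe sets passed. In the test for any difference among the 7 groups 6.76% of all probe sets passed. Ugt2b1 passed it (F = 10.1, limma adjusted p = 0.00456), which held in 41 of 42 alternatives. Sult2b1, a hydroxysteroid sulfotransferase, passed it too (F = 4.39, limma adjusted p = 0.0493), which held in 10 of 42 alternatives.

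Among 11 of 12 liver steroid hydroxylases, Cyp7b1, which hydroxylates oxysterols and neurosteroids, fell by 0.268 at 2500 ppm propiconazole (SE 0.0540, limma adjusted p = 0.0270). Its level was low, -0.112 ± 0.121 (n = 7) in controls and -0.380 ± 0.0519 (n = 4) in that group, and the call held in 7 of 21 alternatives. This was 1 of the 11, against 0.254% of all probe sets that passed there. Cyp7b1 also passed the test for any difference among the 7 groups (F = 6.54, limma adjusted p = 0.0194), as 6.76% of all probe sets did. That call held in 34 of 41 alternatives. The controls ranged from -0.267 to 0.0411, and all arrays lay below them in 3 groups: 2500 ppm propiconazole at -0.433 to -0.308, 2000 ppm myclobutanil at -0.391 to -0.291 and 500 ppm triadimefon at -0.395 to -0.318. Of all probe sets, 2.07%, 3.24% and 2.2% lay wholly below the controls in these groups. At 2000 ppm myclobutanil the difference of -0.230 (limma adjusted p = 0.0672) and at 500 ppm triadimefon that of -0.235 (limma adjusted p = 0.0600) did not pass, and whether the 3 treatments differ in Cyp7b1 was not tested. Cyp3a18 was the 1 of the 11 that rose between the triadimefon levels, by 0.899 (limma adjusted p = 0.0430), a call that held in 7 of 20 alternatives; 24.8% of all probe sets passed in that comparison. Of the 6 genes of gonadal and adrenal synthesis measured of 9 listed, Fdx1, the electron donor of mitochondrial P450s, rose between the triadimefon levels by 0.958 (limma adjusted p = 0.0165, held in 15 of 20), again against 24.8% of all probe sets, and none passed against controls. None of 9 steroid receptors and carriers and none of 8 female-biased liver genes passed in any comparison. Of 9 male-biased genes, Cyp4a8, a fatty acid hydroxylase, rose at 2500 ppm propiconazole by 1.03 (limma adjusted p = 0.0163), which held in 14 of 22 alternatives. This was 1 of the 9, against 0.254% of all probe sets that passed there. Cyp4a8 scored 1.25 to 2.03 in that group, above all controls, whose highest was 1.03. It also passed the test for any difference among the 7 groups (F = 6.70, limma adjusted p = 0.0185), which held in 39 of 42 alternatives. At 500 ppm triadimefon (1.17 to 1.70, limma adjusted p = 0.0721) and 2000 ppm myclobutanil (1.03 to 1.70, limma adjusted p = 0.0922) all arrays were also above the controls, the lowest of the latter by little, and neither passed. Of all probe sets, 0.767%, 0.132% and 0.332% lay wholly above the controls at 2500 ppm propiconazole, 500 ppm triadimefon and 2000 ppm myclobutanil. The difference between these treatments was not tested.

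The genes whose scores followed each of the 7 most closely over the 32 arrays are given as a description; the arrays share preparation and quality, which touch many genes alike. Srd5a3 was most like Ldhd, a mitochondrial lactate dehydrogenase (r = 0.897), and the riboflavin transporter Slc52a2 (0.890). Akr1d1 was most like Akr1c14, a hydroxysteroid dehydrogenase (0.792), and ceruloplasmin, Cp (0.786). Hsd11b1 was most like Baat, which conjugates bile acids (0.949), and Atp5f1c, a subunit of ATP synthase (0.938). Hsd3b5 was most like catalase, Cat (0.878), and Hao1, a peroxisomal oxidase (0.875). Hsd17b2 was most like Nr1d2, a repressor of the circadian clock (0.780), and Sdr42e1 (0.779), as the plot of Hsd17b2 against Nr1d2 shows. Nr1d2 scored 0.774 and 0.634 in the animals at 500 ppm triadimefon with Hsd17b2 at 3.16 and 2.44, and 0.0292 to 0.0744 in the other 3. The likest genes of Esr1 (Abcc9, 0.770, and Grb2, 0.759) and Cyp17a1 (Sh3rf1, 0.650, and Dab1, 0.644) followed them less closely.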

How the data were processed

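Liver RNA of individual rats was measured with Affymetrix rat expression arrays, as the labels' protocols state. The deposited values are scores, with scale, log base and normalisation not given in the sources used here; 3 listed arrays carried no values. Control probe sets (57) were left out. Symbols came from the platform annotation, which gives 20826 of the remaining probe sets 1 symbol, 436 several and 9780 none. From the deposited scores, all 7 groups were fitted in 1 limma model (limma 3.58.1, R 4.3.3; 25 residual degrees of freedom), with no covariate, for 12 contrasts and an F-test over the treatments, with Benjamini-Hochberg adjustment over 31042 probe sets; the script was tested on simulated data. The genes and gene lists were chosen with earlier results of these data known. Named are the 9 listed genes, each list gene past the threshold, and the 2 genes most correlated with each gene. Alternatives changed the normalization, filter, model, blocks and arrays. Precision is limited by the number of animals. The p-values weigh a difference against the spread between animals. They assume that the animals are independent, which could not be checked because their litters are not stated.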

Additional observations from a re-analysis of the deposited data

Results flagged for a closer look

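Between 1800 and 500 ppm triadimefon, 9 of the listed genes, cell type markers aside, differed by limma's test of that difference. In score, Srd5a3 differed by 0.247, Hsd17b7 by 0.532, Hsd17b4 by 0.604, Hsd17b8 by 0.583 and H6pd by 0.873. Fdx1 differed by 0.958, Cyp3a18 by 0.899, Ugt2b1 by 0.906 and Akr1c19 by -0.234. In the same comparison 24.8% of all probe sets passed, and the 500 ppm group held no animal numbered above 3000 while the 1800 ppm group held 3.

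Each animal at 1800 ppm triadimefon was above the control mean of Srd5a3 (0.194 on average) and each at 2000 ppm myclobutanil below it (-0.0591). The difference between these treatments was not tested. Every animal at 500 ppm triadimefon (-0.0535) and at 500 ppm propiconazole (-0.0790) was below that mean as well. The whole array moved the same way. The mean difference from controls was above 0 in 65.7% of all probe sets at 1800 ppm triadimefon. That share was 29.3% at 2000 ppm myclobutanil, 23.9% at 500 ppm triadimefon and 31.8% at 500 ppm propiconazole.

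In 2 of 42 combinations of gene and group (7 genes in the 6 groups of 4 or more arrays) 1 value stood apart from the rest; chance gives about 1 in 20, and the combinations share arrays and so are not independent. Both were of Hsd3b5: 4.78 in the first replicate at 500 ppm myclobutanil, an array whose Hsd11b1 was also the highest at 5.29, and 4.08 in the second at 2500 ppm propiconazole. The first of these arrays had the largest SD of all scores (1.02), the largest maximum (9.01) and the widest GAPDH gap (2.62) of the 32 arrays, and the part of these in its 2 high values was not tested.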

How the results depend on the processing

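The number of the 7 genes past the threshold at 1800 ppm triadimefon against controls was 1 and went to 0 in 6 of 23 alternatives: with the animal number series as a block, with animals numbered above 3000 alone, with only the 2 groups in the model, with quantile normalization and that block together, and without replicate 1 or replicate 2 of that group. Leaving out 1 animal at a time gave 0 to 1. Between the triadimefon levels the count of 1 became 2 with quantile normalization (Hsd3b5 and Srd5a3), with only the 2 groups in the model (Akr1d1 and Srd5a3) and without the arrays of GAPDH gap above 0.9 (Hsd3b5 and Srd5a3). It became 0 with the number series block, with the 3′ to 5′ covariate, with both, and with quantile normalization and the block. These last 4 alternatives also took the count of the test among all 7 groups from 1 to 0. The other 10 comparisons had 0 genes past the threshold in every alternative. The difference of Hsd3b5 between the triadimefon levels, 0.0150, turned to -0.550 with quantile normalization and then passed the threshold (limma adjusted p = 0.00949). Hsd11b1 turned from 0.433 to -0.207 in the same comparison and missed the threshold in both settings. Values that miss it in both are taken to have no direction, and the cause of these turns was not tested.

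The samples share replicate numbers across groups, which follow the order of the animal numbers within each group. The titles state no pairing. With the replicate block Srd5a3 differed by 0.236 at 1800 ppm triadimefon (limma adjusted p = 0.00234) and the count stayed at 1. Same-numbered arrays of different groups did not deviate together (76 pairs, median r of -0.0101, range -0.666 to 0.596). Other-numbered arrays were alike in this (358 pairs, median r of 0.00705, range -0.735 to 0.71). A pairing by these numbers is therefore not shown.

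The blocks and covariate joined with other settings were chosen after seeing the data. Animals numbered above 3000 alone gave values for 1800 ppm triadimefon against controls and for no other comparison. With 3 to 7 animals a group, differences smaller than the intervals given could not be seen, and low scores such as those of Esr1 and Cyp17a1 leave little room to see a fall.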

Other observations

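Late germ cell transcripts varied strongly between arrays. The summed score of 7 germ cell markers ran from -1.26 to 6.72 within the 4 arrays at 1800 ppm triadimefon, from -1.16 to 3.48 within controls and up to 7.40 at 2000 ppm myclobutanil, while the sum of 6 Leydig cell markers stayed between -1.06 and -0.485 on all 32 arrays. Among these 6, Lhcgr was higher at 1800 than at 500 ppm triadimefon, by 0.130 (limma adjusted p = 0.0374). In that comparison 24.8% of all probe sets passed. Prm1 was at 2.42 and 2.68 in replicates 2 and 5 at 500 ppm myclobutanil, 2.51 in replicate 5 at 2000 ppm and 2.15 in replicate 3 at 500 ppm triadimefon. It was at most -0.237 in 5 arrays, 2 controls numbered above 3000 and 3 animals at 1800 ppm triadimefon.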
